A study of Homo sapiens with 6 samples.

Results

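A set of 9 genes of pericellular proteolysis was followed in U2OS cells with silenced SQLE: the matrix metalloproteinases MMP1, MMP2, MMP3 and MMP14, the tissue inhibitors of metalloproteinases TIMP1, TIMP2 and TIMP3, urokinase-type plasminogen activator (PLAU) and its receptor (PLAUR). They were chosen by name, as proteases and inhibitors of the matrix, and found in the count table by Ensembl identifier. The choice was made with earlier results of these data known, so counts over the 9 are descriptions only. All 9 of the 19937 genes in the count table had counts in every library and all 9 were among the 12450 genes that passed the filter on low counts. The data were poly(A) RNA-seq of U2OS, an established human osteosarcoma (OSA) cell line. The 3 shSQLE libraries came from cells with a stably integrated lentiviral pGIPZ construct expressing a short hairpin RNA against squalene epoxidase (SQLE), an enzyme of cholesterol synthesis. The 3 shControl libraries came from cells with a scrambled hairpin in the same vector. Both had been selected with puromycin, and no other agent was named. The question was which transcripts differed when SQLE was silenced. The study compared several hairpins and picked a single one for its work in U2OS. Other effects of a single hairpin cannot be told apart from loss of SQLE in these libraries. Which hairpin sequence the cells carried, whether the selected cells were pools or clones, and whether replicate libraries were grown as separate cultures was not given for these libraries in the sources used here. For its experiments in general, the study speaks of at least 3 independent experiments, of technical replicates within a test, and of showing a representative experiment. Which of these the libraries are was not given. The p-values therefore measure the spread among these libraries, which may be technical.

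Matrix metalloproteinases are zinc-dependent enzymes that are made as inactive precursors and cleave collagens, other matrix proteins and proteins at the cell surface. MMP1 is the interstitial collagenase, which cleaves fibrillar collagen, MMP2 is gelatinase A, which acts on denatured collagen and basement membrane collagen, MMP3 is stromelysin-1, which also activates other members of the family, and MMP14 is a membrane-anchored collagenase. The TIMPs bind the active enzymes and block them, and MMP14 with TIMP2 forms the surface complex on which the MMP2 precursor is activated. PLAU, a secreted serine protease held at the cell surface by its lipid-anchored receptor PLAUR, turns plasminogen into plasmin, which degrades fibrin and activates several metalloproteinase precursors. In bone tumours these systems are known from studies of invasion and of matrix turnover.

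In hg38 with the GENCODE v44 annotation, MMP1 (ENSG00000196611, chr11:102789401-102798160) and MMP3 (ENSG00000149968, chr11:102835801-102843609) lay on the - strand of the same metalloproteinase cluster. MMP2 (ENSG00000087245, chr16:55389700-55506691), MMP14 (ENSG00000157227, chr14:22836560-22849041) and PLAU (ENSG00000122861, chr10:73909177-73917496) lay on the + strand, and PLAUR (ENSG00000011422, chr19:43646095-43670547) on the - strand. TIMP1 (ENSG00000102265, chrX:47582408-47586789) and TIMP3 (ENSG00000100234, chr22:32801705-32863041) lay on the + strand, each inside a synapsin gene that ran the other way, while TIMP2 (ENSG00000035862, chr17:78852977-78925387) lay on the - strand. The use of strand in the counting was not given in the sources used here, so counts of genes with an overlapping partner are uncertain. PLAU shared 915 nt of exon sequence with the antisense lncRNA C10orf55, TIMP2 367 nt with an antisense lncRNA, and MMP1 and MMP3 223 and 32 nt with the pseudogene WTAPP1, none of which was counted apart from them here. On the same strand MMP2 shared 174 nt with ENSG00000279030, which was not counted apart from it here, and TIMP2 shared 224 nt with CEP295NL, which had at most 2 counts in a library. SYN1 had 0 to 3 counts and SYN3 14 to 23 in each library, against 774 or more for TIMP1 and 2956 or more for TIMP3.

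The RefSeq promoter table (GRCh38.p14) held windows for 5 of the 9 genes, MMP14, TIMP1, TIMP3, PLAU and PLAUR, and had no entry for MMP1, MMP2, MMP3 and TIMP2. The sequences upstream of the start of PLAU (chr10:73910882-73911103, + strand), TIMP1 (chrX:47582186-47582407, + strand) and TIMP3 (chr22:32801455-32801704, + strand) are shown because the shSQLE libraries lay above all controls for PLAU and TIMP3 and below all controls for TIMP1, while all 3 windows held matches to the GC box (GGGCGG or its reverse complement CCGCCC), which are in capitals.
PLAU: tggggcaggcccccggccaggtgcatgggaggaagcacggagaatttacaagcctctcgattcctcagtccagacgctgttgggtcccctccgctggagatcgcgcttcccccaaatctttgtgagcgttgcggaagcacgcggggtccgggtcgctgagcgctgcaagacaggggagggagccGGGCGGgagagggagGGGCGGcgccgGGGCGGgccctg
TIMP1: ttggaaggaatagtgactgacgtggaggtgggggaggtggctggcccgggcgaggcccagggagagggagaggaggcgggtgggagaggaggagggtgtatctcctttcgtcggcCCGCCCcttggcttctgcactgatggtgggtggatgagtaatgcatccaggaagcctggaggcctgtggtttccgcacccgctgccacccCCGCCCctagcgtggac
TIMP3: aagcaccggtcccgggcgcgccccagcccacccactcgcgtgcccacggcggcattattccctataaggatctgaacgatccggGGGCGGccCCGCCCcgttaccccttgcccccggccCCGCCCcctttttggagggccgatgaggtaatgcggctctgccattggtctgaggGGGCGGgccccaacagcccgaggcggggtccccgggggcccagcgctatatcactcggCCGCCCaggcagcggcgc
Within 250 bases before the start, PLAU had 3 GC boxes, TIMP1 2 and TIMP3 5. The table held a second PLAU window, for a start further upstream (chr10:73910360-73910609), which had 0 GC boxes and a GC content of 46.8%, against 68.8% in the window shown. MMP14 had 1 and PLAUR 0. Of 35116 such windows in the table, 42.6% held at least 1. The AP-1 motif TGANTCA, which is its own reverse complement, was matched once, in PLAUR (TGAGTCA, from 186 to 180 bases before the start), and 6.57% of all windows held it. TATAAA, searched on both strands, was found in none of the 5 and in 10.7% of all windows. A match describes the letters only, and the PLAU window shown also lay in an exon of C10orf55. Both PLAU windows lay inside the annotated gene, and the one shown preceded the start of the canonical transcript (chr10:73911132).

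The libraries held 12212378 to 14393292 counts. The targeted gene SQLE had 1349, 1867 and 1924 normalized counts in the control libraries, in the order of their replicate numbers, against 229, 204 and 219 in shSQLE, or 12.7% of control (p = 0.1 in an exact permutation test, two-sided, the smallest p possible with 3 against 3). A normalized count is the count scaled to the mean effective library size. shControl replicate 1 stood apart from the other controls: a chi-square statistic per degree of freedom over all genes was 51.3 and 60.8 against shControl replicates 2 and 3, 2.76 between those, and 3.31 to 15.2 between shSQLE libraries. Against shSQLE replicates 1, 2 and 3 that control gave 30.8, 25.4 and 51.8, so it was nearer to 2 silenced libraries than to either other control. The other 2 controls gave 22.4 to 49.7 against shSQLE libraries. Of 9 osteoblast lineage markers, SP7 and IBSP had no count, and ALPL, COL1A2 and BGLAP had at most 2, 6 and 5 raw counts in any library. Of the 4 tested, 1 was called lower (COL1A1, log2 fold change -0.65), against 2.84% of all genes. The list, mostly SPARC, summed to 6738 to 6846 normalized counts in shControl and 5532 to 5735 in shSQLE. SPARC was not called (log2 fold change -0.28, adjusted p = 0.185 in edgeR), nor were RUNX2 (-0.29) and SPP1 (0.19). Leukocyte markers summed to at most 18.5 normalized counts, with PTPRC and CD3E at 0 and none tested, and endothelial markers to at most 17.7, with 1 tested (PECAM1, log2 fold change -1.67, adjusted p = 0.0933). Epithelial markers, mostly KRT8 and KRT18, summed to 12172 to 21237 in shControl and 14893 to 18820 in shSQLE, with CDH1 at 2 counts or fewer, and 0 of 3 tested were called by edgeR or DESeq2 (0 at an unadjusted p under 0.05 in edgeR). The part of other cells in the results was not tested.

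The collagenase MMP1, the most abundant of the 9, and the gelatinase MMP2 both fell in shSQLE to well below the level of every control library, whereas PLAU rose. MMP1 went to 0.433 times and MMP2 to 0.415 times control, and PLAU to 1.75 times. Of the 9 genes, 2 were called lower and 1 higher at an adjusted p under 0.05 in the quasi-likelihood test of edgeR, adjusted by Benjamini and Hochberg's method over all genes tested. Every adjusted p given here is from that test unless DESeq2 is named. Over all 12450 genes, 2.84% were called lower and 0.369% higher. For 6 of the 9, every shSQLE library lay on the same side of every shControl library, against 22.1% of all genes tested. The median log2 fold change of the 9 was -0.31, which is the value of MMP3, a gene of few counts, beside -0.01 for all genes. In bulk RNA, fewer cells that express a gene and less RNA per cell cannot be told apart.

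**Figure D1:**
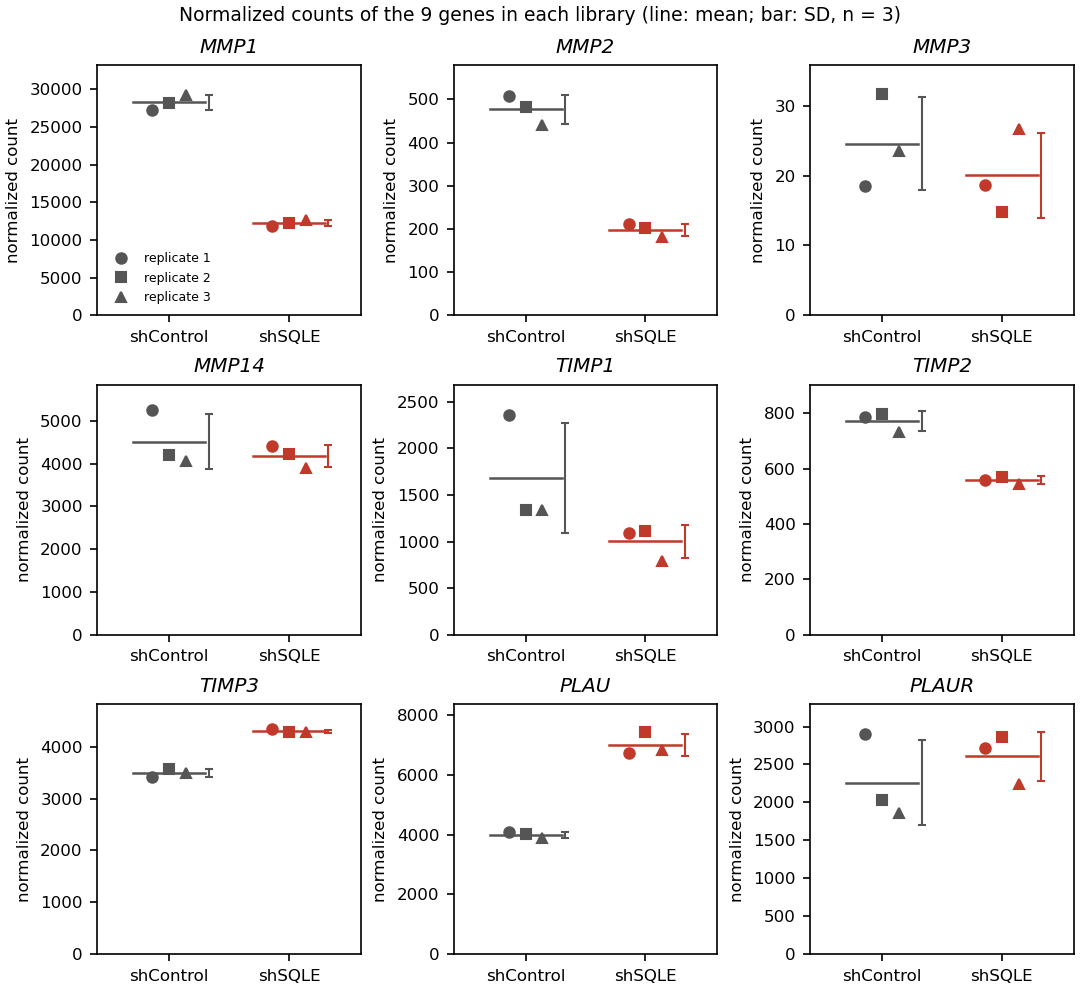
Normalized counts of the 9 genes (vertical axes, from 0) in the 3 shControl and 3 shSQLE libraries, with the marker shape giving the replicate number, a line at the group mean and a bar of 1 SD. MMP1 and MMP2 sit lower and PLAU higher in every shSQLE library than in any control. shControl replicate 1 is the highest library for TIMP1, MMP14, MMP2 and PLAUR, for PLAUR only just above shSQLE replicate 2.

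MMP1 had 27281, 28230 and 29292 normalized counts in the control libraries, again in replicate order, and 11804, 12186 and 12692 in the shSQLE libraries. The groups were far apart and narrow, with means of 28268 ± 1006 and 12228 ± 446 (SD, n = 3 each). The log2 fold change was -1.21 (SE 0.095, 95% confidence interval -1.43 to -0.99, adjusted p = 0.000979), and MMP1 ranked 19 by p among all genes. Its share of all counts was 0.194% to 0.228% in the control libraries and 0.0857% to 0.0956% in shSQLE. The gene was called in 13 of 13 alternative fits, with log2 fold changes from -1.25 to -1.17.

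MMP2 was far less abundant but changed by a like factor. For this gelatinase the shControl libraries held 507, 483 and 441 normalized counts and the shSQLE libraries 211, 201 and 182. Every control library thus exceeded the highest shSQLE library. Means were 477 ± 33.1 and 198 ± 14.6 (SD, n = 3 each), giving a log2 fold change of -1.27 (SE 0.13, interval -1.57 to -0.97, adjusted p = 0.00259). MMP2 too was called in all 13 alternatives (-1.31 to -1.20).

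MMP3 and MMP14 gave no call. The stromelysin MMP3 had few counts, with 16, 35 and 24 raw counts in shControl and 19, 15 and 26 in shSQLE. Its groups overlapped, and at this depth the interval of the log2 fold change, -1.06 to 0.44 around -0.31, held a clear decrease as well as an increase (adjusted p = 0.749). MMP14, the membrane-anchored collagenase, was abundant: 5244, 4208 and 4065 normalized counts in shControl and 4404, 4216 and 3895 in shSQLE. These ranges overlapped, and the interval of -0.40 to 0.18 around -0.11 was narrow enough to leave out a change of the size seen for MMP1 or MMP2 (adjusted p = 0.775). Without shControl replicate 1 the value was 0.013, while on the TPM scale (counts per transcript length, scaled to the same total in each library) the groups did not overlap (175 ± 0.611 against 155 ± 6.42, SD, n = 3 each).

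None of the 3 inhibitors was called, although each had an unadjusted p under 0.05, and their values differed in direction. TIMP1, which inhibits most secreted metalloproteinases, had 2362, 1340 and 1344 normalized counts in shControl and 1097, 1114 and 796 in shSQLE. No shSQLE library reached a control library, but the control mean of 1682 ± 589 (SD, n = 3) rested on replicate 1. The log2 fold change was -0.75 (SE 0.25, interval -1.32 to -0.17), with an adjusted p of 0.199. Without shControl replicate 1 it was -0.42 with an adjusted p of 0.0196, so the size shrank while the call appeared.

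TIMP2, which both inhibits MMP2 and takes part in its activation, had 789, 798 and 733 normalized counts in shControl and 559, 572 and 545 in shSQLE. The groups were well separated relative to their spread, at 773 ± 35.1 and 559 ± 13.5 (SD, n = 3 each). The log2 fold change of -0.47 (SE 0.11, interval -0.72 to -0.22) nevertheless had an adjusted p of 0.0645, just short of the threshold. It was called by DESeq2 (adjusted p = 0.00956) and without shControl replicate 1 (adjusted p = 0.00283).

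TIMP3, the inhibitor that binds to the matrix, differed the other way, with 3413, 3560 and 3496 normalized counts in shControl and 4334, 4283 and 4277 in shSQLE. Relative to the mean, its shSQLE replicates were the tightest of the 9 genes (4298 ± 31.5, SD, n = 3), and the groups did not overlap on this scale. The log2 fold change was 0.30 (SE 0.09, interval 0.09 to 0.51, adjusted p = 0.150). DESeq2 called it (adjusted p = 0.0320), as did the fit without shControl replicate 1 (adjusted p = 0.0101), but on the TPM scale the groups overlapped.

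PLAU had 4094, 4009 and 3891 normalized counts in shControl and 6734, 7423 and 6815 in shSQLE. Every shSQLE library was thus far above every control. Means were 3998 ± 102 and 6991 ± 376 (SD, n = 3 each), with a log2 fold change of 0.81 (SE 0.10, interval 0.59 to 1.03, adjusted p = 0.00464). The call held in 13 of 13 alternatives, with values from 0.76 to 0.84.

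The receptor PLAUR had 2901, 2026 and 1856 normalized counts in shControl and 2721, 2860 and 2241 in shSQLE. shControl replicate 1 was the highest library of all, and the groups overlapped. The log2 fold change was 0.21 (SE 0.18, interval -0.22 to 0.63, adjusted p = 0.699). Without shControl replicate 1 it was 0.43 with an adjusted p of 0.00774.

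**Figure D2:**
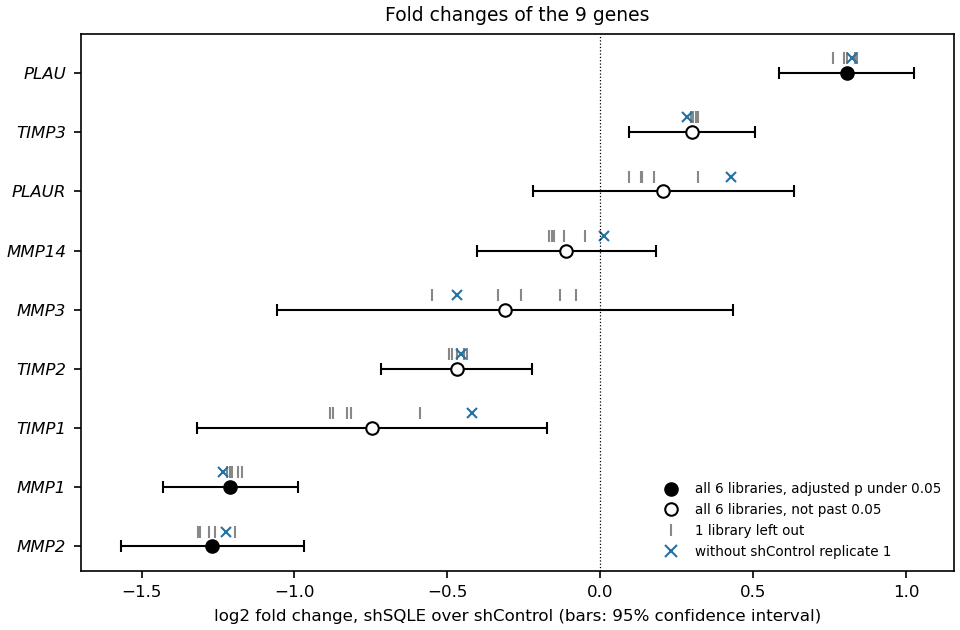
Log2 fold change of each of the 9 genes, shSQLE over shControl (horizontal axis), with its 95% confidence interval, filled points for an adjusted p under 0.05, grey ticks for fits that left out 1 library and a blue cross for the fit without shControl replicate 1. Only MMP1, MMP2 and PLAU are filled, and the cross lies away from the other fits for TIMP1, MMP14 and PLAUR.

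shControl replicate 1 weighed on the 9 genes unevenly. TIMP1, MMP14, PLAUR, MMP2 and PLAU were higher in it than in both other controls, by a wide margin for the first 3 and a small one for MMP2 and PLAU, and the other 4 members were not. The canonical transcripts of these 5 had GC contents of 57.5%, 58.9%, 55.9%, 55.8% and 52.8%, and those of MMP1, MMP3, TIMP2 and TIMP3 43.3%, 45.0%, 53.7% and 48.7%. Without that library 7 of the 9 genes were called, MMP1, MMP2, TIMP1 and TIMP2 lower and TIMP3, PLAU and PLAUR higher, but 18.3% and 15.6% of all genes were then called lower and higher. The same 7 genes were called in a fit with offsets for GC content and transcript length, chosen after the data were seen, in which 8.66% and 12.4% of all genes were called. In that fit the log2 fold changes of TIMP1, TIMP2, TIMP3 and PLAUR were -0.77, -0.41, 0.36 and 0.20, while the median of all genes was 0.06.

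Compared per transcript length, the 9 genes differed widely in level. MMP1 led with 2098 ± 350 TPM in shControl and 859 ± 92.2 in shSQLE (SD, n = 3 each), at percentiles 99.6 and 99.1 of the genes with any count. In shControl it was followed by TIMP1 (309 ± 60.3), PLAU (248 ± 28.7), PLAUR (236 ± 22.9), MMP14 (175 ± 0.611) and TIMP3 (111 ± 16.8). TIMP2 (30.8 ± 3.72), MMP2 (19.7 ± 1.75) and MMP3 (2.00 ± 0.718) came last. The neighbours PLAU and PLAUR were not separated, since their libraries overlapped. In shSQLE the order was MMP1, PLAU (412 ± 24.4), PLAUR (262 ± 14.3), TIMP1 (178 ± 20.4), MMP14 (155 ± 6.42), TIMP3 (129 ± 9.33), TIMP2 (21.1 ± 1.08), MMP2 (7.76 ± 0.314) and MMP3 (1.54 ± 0.590), and there TIMP1 and MMP14 overlapped. The order depended on the length used. With the union of all annotated exons in place of the canonical transcript, PLAU ranked 2, TIMP1 3, MMP14 4, TIMP3 5 and PLAUR 6 in shControl, and PLAU ranked 2, TIMP3 3, MMP14 4, TIMP1 5 and PLAUR 6 in shSQLE, while MMP1, TIMP2, MMP2 and MMP3 kept their ranks. Summed over the 9 genes, MMP1 made up 64.6% ± 4.64 of the TPM in shControl and 42.3% ± 2.58 in shSQLE, and PLAU 7.68% ± 0.232 and 20.3% ± 0.625 (SD, n = 3 each).

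**Figure D3:**
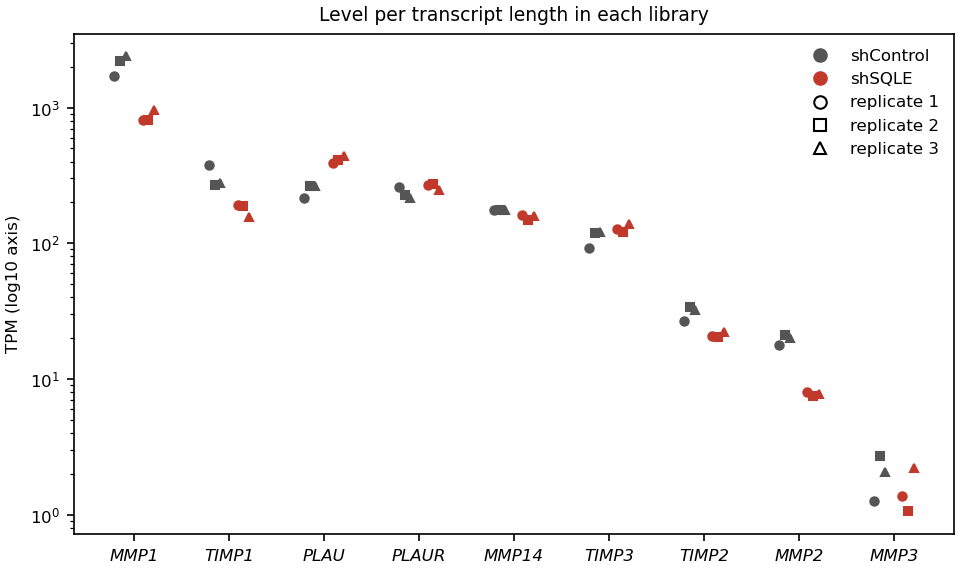
TPM (log10 axis) of the 9 genes in each library, ordered by the shControl mean, with grey for shControl, red for shSQLE and the marker shape for the replicate. MMP1 lies above all others in both groups, PLAU lies above TIMP1 in shSQLE but below it in shControl with canonical transcript lengths (above it in both with union exon lengths), and MMP3 lies lowest near 2 TPM.

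Ratios within a library show how enzyme and inhibitor transcripts stood to each other. They describe RNA only and were not tested. In the 3 controls MMP2 over TIMP2 was 0.668, 0.629 and 0.626, and in the shSQLE libraries it was 0.391, 0.366 and 0.347, without overlap. MMP1 over TIMP3 was 18.9 ± 0.567 in shControl and 6.64 ± 0.285 in shSQLE (SD, n = 3 each). MMP1 over TIMP1 gave overlapping groups (7.08 ± 2.23 and 4.90 ± 1.15), with shControl replicate 1 at 4.51 beside 8.22 and 8.50 in the other controls. For MMP14 the ratio to TIMP2 was higher in shSQLE, at 7.37 ± 0.367 against 5.75 ± 0.717, and so was the ratio to MMP2, at 20.0 ± 0.258 against 8.95 ± 0.794. MMP1 over PLAU went from 7.92, 8.37 and 8.95 in the controls to 2.08, 1.95 and 2.21. PLAU over PLAUR was 1.07 ± 0.214 in shControl and 1.58 ± 0.174 in shSQLE.

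**Figure D4:**
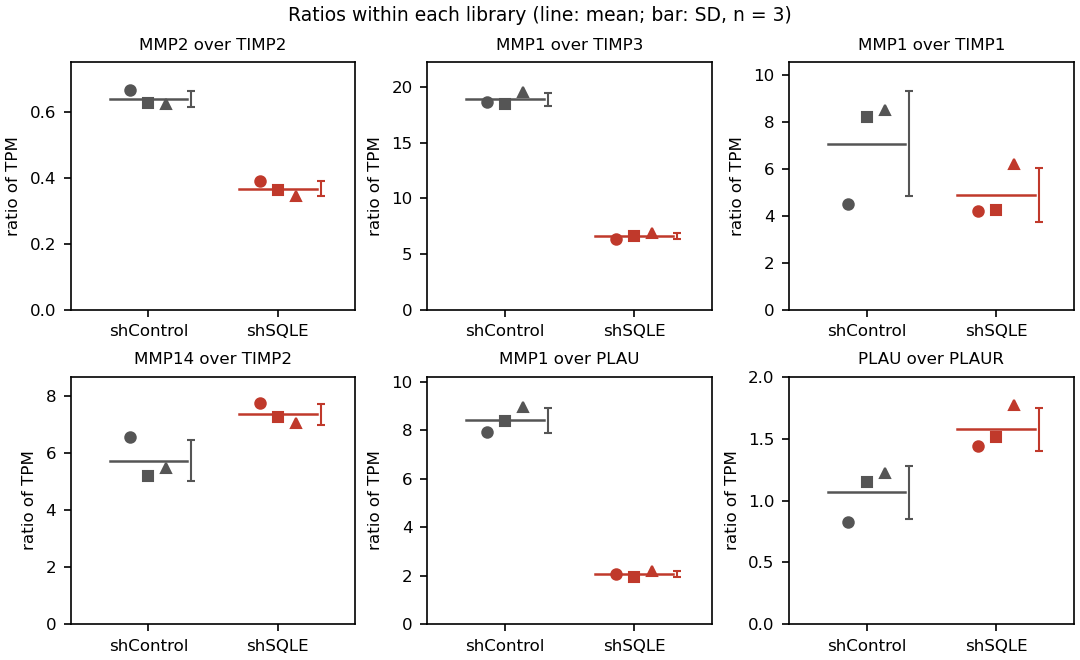
Ratios of TPM within each library (vertical axes, from 0) for 6 pairs of genes, with marker shapes for replicates, a line at the mean and a bar of 1 SD. MMP2 over TIMP2, MMP1 over TIMP3 and MMP1 over PLAU sit lower in every shSQLE library than in any control, whereas MMP1 over TIMP1 overlaps.

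MMP1 and MMP3 belong to a run of 9 metalloproteinase genes in 435225 bases of chromosome 11. Most of them were silent or nearly so: MMP20 and MMP27 had no count, and MMP7, MMP8 and MMP12 at most 4 in any library. MMP13, collagenase-3, had 16, 50 and 52 raw counts in shControl and 7, 6 and 6 in shSQLE, and it was called lower (log2 fold change -2.59, SE 0.45, adjusted p = 0.0230 by edgeR's test). That call was lost without any single library other than shControl replicate 1 (adjusted p = 0.0671 to 0.137). MMP10, stromelysin-2, is named although it failed the filter and was picked after its values were seen: it had 11, 18 and 7 raw counts in shControl and 5, 4 and 1 in shSQLE, and with no filter its log2 fold change was -1.81 (SE 0.59, adjusted p = 0.201). MMP3, which lies between MMP1 and MMP13, overlapped between the groups as given above.

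A further 6 lists set the 9 genes among other proteases of the matrix. Of 98 genes listed, 58 were tested, 9 were called lower and 2 higher, 20 did not overlap between groups, and the median log2 fold change was -0.24. Over all genes tested, 2.84% were called lower, 0.369% higher and 22.1% did not overlap, with a median of -0.01, and the counts of each list below have the same background. The values that follow are normalized counts and log2 fold changes from the same edgeR fit. Of 19 other metalloproteinases, 8 were tested and MMP13 alone was called. The most abundant of the rest were the membrane-bound MMP17 (170 ± 65.2 to 182 ± 30.1, log2 fold change 0.11, adjusted p = 0.916) and MMP16 (188 ± 59.2 to 152 ± 37.2, -0.31, adjusted p = 0.691). Among 8 other inhibitors, activators and partners, 7 were tested and edgeR called 0, with 0 at an unadjusted p under 0.05, and DESeq2 called 0 as well. They included basigin (BSG, 6392 ± 1827 to 6446 ± 655, 0.01), an inducer of metalloproteinases, and the convertase FURIN (1197 ± 163 to 1091 ± 79.7, -0.13), which activates the MMP14 precursor.

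Of 16 other genes of the plasminogen system, 10 were tested, 2 were called lower and 1 higher. TFPI2, a Kunitz-type inhibitor of plasmin, had 1755, 2009 and 1838 normalized counts in shControl and 858, 830 and 744 in shSQLE (log2 fold change -1.20, SE 0.11, adjusted p = 0.00185), and it was called in all 13 alternatives. SERPINE2, which inhibits urokinase and thrombin, fell from 2181 ± 151 to 1358 ± 31.3 (-0.68, adjusted p = 0.0131). PLAT, the tissue-type plasminogen activator, rose from 244 ± 19.7 to 414 ± 56.2 (0.76, adjusted p = 0.0350). Both activators of plasminogen were thus called higher, with PLAT far below PLAU in counts. The plasminogen-binding proteins ENO1 (0.16, adjusted p = 0.781) and ANXA2 (0.17, adjusted p = 0.612), the most abundant of the list, were not called. Plasminogen itself (PLG) had no count in any library.

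In the list of 28 ADAM and ADAMTS proteases, 16 were tested and ADAM8 was called lower (363 ± 82.6 to 191 ± 21.1, log2 fold change -0.93, adjusted p = 0.0416). ADAM19 and ADAM9, the most abundant, had log2 fold changes of 0.13 and 0.08 (adjusted p = 0.657 and 0.944). Of 20 cysteine cathepsins and cystatins, 11 were tested, and the lysosomal proteases CTSB (-0.68, adjusted p = 0.0261), CTSO (-1.52, adjusted p = 0.0156) and CTSS (-0.99, adjusted p = 0.00734) fell while CTSV (0.84, adjusted p = 0.0412), a close relative of CTSL in sequence, rose. CTSB was the most abundant of these, at 7495 ± 996 in shControl and 4673 ± 282 in shSQLE. The inhibitor CSTB (0.05) and the protease CTSL (-0.17) were not called. Of 7 other matrix-degrading enzymes, 6 were tested, and the secreted serine proteases HTRA1 (-1.87, adjusted p = 0.0198) and PRSS23 (4540 ± 256 to 2699 ± 133, -0.75, adjusted p = 0.00777) fell. BMP1, the procollagen C-proteinase, had a log2 fold change of -0.54 (adjusted p = 0.167), and heparanase (HPSE) of 0.16 (adjusted p = 0.881). Apart from TFPI2, each gene called in these lists lost its call without shSQLE replicate 1 and without shSQLE replicate 2. Calls of lower genes numbered 1, 1 and 2 without shSQLE replicates 1, 2 and 3, 19, 2 and 5 without shControl replicates 1, 2 and 3, and 8 genes were called higher without shControl replicate 1 but 0 without any other library. Without shControl replicate 1, 18.3% of all genes were called lower and 15.6% higher, and without any other library 0.801% to 1.58% lower and 0.0318% to 0.103% higher.

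**Figure D5:**
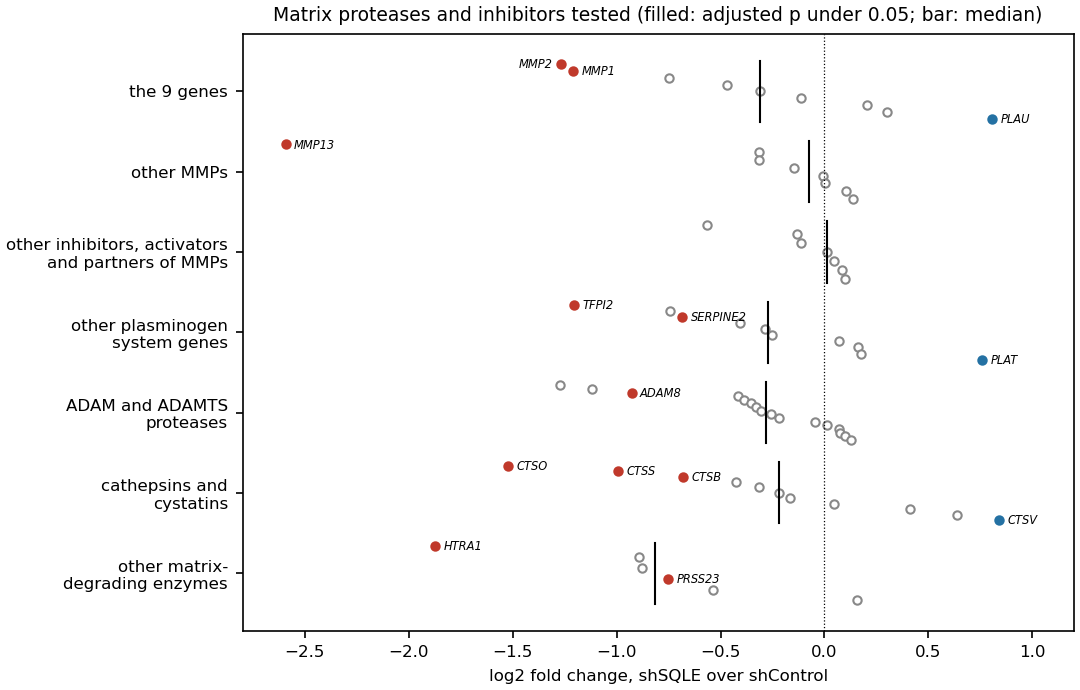
Log2 fold change, shSQLE over shControl, of the tested genes among the 9 and in the 6 wider lists, with filled points for an adjusted p under 0.05 (red lower, blue higher), open points for the rest and a black bar at each list's median. Called genes are named, the bar of other inhibitors, activators and partners lies close to 0, and filled points lie on the left in most lists.

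The genes that followed MMP1 most closely over the 6 libraries, by Pearson's r of log2 CPM (counts scaled to library size), were COL5A1 (r = 0.999), HERC6 (0.998), HSPA5 (0.998), IL6 (0.996) and ZNF469 (0.996). For PLAU they included MAPKAP1 (0.998), ATP5PB (0.997), CCN1 (0.997) and HMGN2 (0.996). These values describe 6 libraries in 2 groups of a shared design, so genes with a steady difference between the groups tend to score high: 299 of 12449 genes had an r above 0.95 with MMP1 and 173 with PLAU.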

How the data were processed

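RNA-seq counts of 3 shSQLE and 3 shControl libraries were analysed, grouped by the labelled genotype. Per the study's methods and the submitters' processing notes, reads were trimmed by fastp 0.20.0, mapped to the hg38 genome by STAR 2.7.9a and summed per gene by featureCounts 2.0. The authors deposited these raw counts without normalization. The annotation release, the use of strand and the handling of multi-mapping reads were not given in the sources used here. Of 19937 genes, 3942 had no count and 32 identifiers had no symbol.

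Counts were analysed in R 4.3.3 with edgeR 4.0.16 (filterByExpr, TMM, quasi-likelihood test, condition as the only term, Benjamini-Hochberg adjustment, calls at 0.05). Alternatives were DESeq2 1.42.0, RLE size factors, library size only, no filter, at least 10 counts in every library, a replicate block, and leaving out each library. Offsets for GC content and transcript length (mgcv 1.9.3) and the TPM scale were added after seeing the data. TPM used canonical transcript lengths of GENCODE v44, and a count of 3 served as the floor, for counting error only. Log2 CPM used a prior count of 2. The genes named are SQLE, the 9 genes, and from each of 6 wider lists the called genes (at most 5 in a direction) and the 2 others with the highest mean, besides 5 genes most alike to MMP1 and to PLAU, of which some are not reported here. The 9 genes, the lists and the tests were chosen with earlier results of these data known, so counts over lists are descriptions, without a test of the list.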

Additional observations from a re-analysis of the deposited data

How the results depend on the processing

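MMP1, MMP2, PLAU and TFPI2 kept direction and call in all 13 alternatives, and so did SQLE. DESeq2 called 556 of 13824 genes lower (4.02%) and 158 higher (1.14%), against 354 and 46 of 12450 in edgeR. Of the 9 genes it called 3 lower (MMP1, MMP2 and TIMP2) and 2 higher (TIMP3 and PLAU). In the fit with GC and length offsets, 1078 genes were lower and 1543 higher, among them 4 and 3 of the 9 genes and 17 and 5 genes of the wider lists (9 and 2 without offsets). Leaving out 1 library gave 101 to 2300 lower and 4 to 1964 higher genes, 2 to 4 lower and 1 to 3 higher among the 9, and 1 to 19 lower and 0 to 8 higher in the wider lists. The upper ends came without shControl replicate 1 and the lower ends of all genes without shSQLE replicate 3 (lower) and shSQLE replicate 1 (higher). MMP14 ranged from -0.17 to 0.013 in these fits and turned positive without shControl replicate 1. The cause was not tested. With library size only, 0 genes of the wider lists were higher (CTSV and PLAT, adjusted p = 0.0512 each). Whether replicate numbers pair the samples was not given in the sources used here. Deviations from the group means correlated at 0.138, -0.433 and 0.543 for numbers 1, 2 and 3. Not every library correlated best with its own number. With 3 libraries in a group and shControl replicate 1 standing apart, these values cannot decide whether the samples were paired. The replicate block gave 362 lower and 34 higher genes, with the same calls among the 9, and 1 higher gene in the wider lists (CTSV lost its call, adjusted p = 0.0689). Depth limits MMP3, with 15 to 35 counts in a library, and MMP13, with 6 to 52.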
